A study of Mus musculus with 9 samples.

Results

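Glutamate, the main excitatory transmitter of the cortex, acts on ion channels and also on metabotropic receptors, which signal through G proteins. Of this receptor family, the genes Grm2, Grm3, Grm4, Grm5, Grm7 and Grm8 were followed, chosen by name. The choice was made with earlier results of these data known. They are 6 of the 55401 genes in the deposited count tables, and all 6 were among the 16046 genes that passed the filter on low counts and were tested. Other genes of the family were not analysed here.

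RNA was measured in nuclei sorted from mouse cortex for NeuN, a protein of neuronal nuclei, in 3 groups of 3 libraries. The first group is Tau P301S transgenic mice injected intraperitoneally with Cdk5i, a peptide inhibitor of the kinase Cdk5. The second is Tau P301S mice given a scrambled peptide. Both peptides were given at 20 mg/kg every other day. The third is wild-type (WT) mice with no treatment, so that against WT the transgene and the injections cannot be told apart. Mice were 7 to 9 months old. The labels used here name neither the transgenic line nor the promoter that drives tau. They also do not say whether libraries are separate animals, so each p-value rests only on how far these libraries differ, which may be technical.

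The receptors fall into classes by sequence and by the G protein they use. Group I, here Grm5, couples to Gq, raises inositol trisphosphate and calcium, and sits mostly behind the synapse, where it takes part in long-term depression. Group II (Grm2 and Grm3) and group III (Grm4, Grm7 and Grm8) couple to Gi/o, lower cyclic AMP, and act largely on nerve terminals as brakes on transmitter release. Grm3 is also made by astrocytes. Grm7 lies at the active zone and responds only to high glutamate. Grm4 is best known from cerebellar granule cells and from striatal axons, and Grm8 is a presynaptic receptor with high affinity for glutamate.

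Library totals ran from 21584712 to 26715938 counts. Ribosomal RNA took 0.771 to 3.06% of counts and mitochondrial RNA 0.0793 to 0.137%. Rbfox3, the gene of NeuN, stood at 1106 to 1558 CPM (counts scaled to library size with TMM factors) in the 9 libraries. The neuron marker Tubb3 was at 0 counts in every library, while Snap25 and Syt1 averaged 618 and 3428 CPM. Whether the 0 of Tubb3 came from its expression or from the way reads were counted was not tested. The excitatory markers Camk2a and Slc17a7 and the inhibitory markers Gad1 and Gad2 were present in every library. Glial marker lists were mixed. Of the astrocyte list, Gfap (0.817 CPM) and Aqp4 (1.10 CPM) were near 0, while Slc1a2 (454 CPM) and Slc4a4 (286 CPM) were not. Of the oligodendrocyte precursor list, Pdgfra was at 0.686 CPM and Tnr at 869 CPM.

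Because reads were 40 bases from each end, the 6 genes were compared in sequence to see whether their reads could be confused. The stretch around the longest identical run is shown for 5 of the genes, cut from the coding sequence of 1 transcript per gene (GENCODE M21, GRCm38). It is read 5′ to 3′ on the coding strand, with capitals for bases identical to Grm4 at the same place.
Grm5: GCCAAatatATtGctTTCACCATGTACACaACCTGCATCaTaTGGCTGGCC
Grm3: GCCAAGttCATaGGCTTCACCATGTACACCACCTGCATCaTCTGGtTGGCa
Grm4: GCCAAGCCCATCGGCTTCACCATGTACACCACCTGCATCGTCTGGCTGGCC
Grm7: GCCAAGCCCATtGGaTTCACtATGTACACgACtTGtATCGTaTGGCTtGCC
Grm8: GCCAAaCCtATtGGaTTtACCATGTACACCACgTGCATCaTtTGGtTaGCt

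These 51 bases lie within 1 coding exon of each of these genes. The exon is number 7 of 9 in Grm5 (chr7:88074811-88074861, plus strand) and 4 of 6 in Grm3 (chr5:9511497-9511547, minus strand). In group III it is exon 9 of 11 in Grm4 (chr17:27434575-27434625, minus strand), 8 of 11 in Grm7 (chr6:111358988-111359038, plus strand) and 8 of 10 in Grm8 (chr6:27363127-27363177, minus strand). Grm3 matched Grm4 at 45 of the 51 bases, Grm7 at 43, Grm5 at 41 and Grm8 at 40. Because the stretch was chosen around the longest run, which Grm3, of group II, shares with Grm4, the first place of Grm3 follows from that choice. Identity between Grm3 and Grm4 over the full coding sequence was 58.1%.

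Over the whole coding sequence the order followed the receptor groups. Identity was 69.9% between Grm7 and Grm8, 69.2% between Grm4 and Grm7, 68.6% between Grm4 and Grm8 and 67.6% between Grm2 and Grm3, while pairs from different groups had 56.6 to 60.9%. The longest identical coding run was 27 bases, between Grm3 and Grm4, inside the stretch printed above. The next was 26 bases between Grm4 and Grm7. In 0 of the 15 pairs did any annotated transcripts share a run of 40 bases, so no read that lies wholly in annotated exons matches a pair of these genes exactly.

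The genes differ widely in size. Grm7 (chr6:110645581-111567230, plus strand) spans 922 kb and Grm8 (chr6:27275119-28135178, minus strand) 860 kb, longer than 99.6% and 99.5% of the genes tested. Grm5 (chr7:87584168-88134907, plus strand) spans 551 kb, Grm3 (chr5:9485541-9725170, minus strand) 240 kb and Grm4 (chr17:27422387-27521403, minus strand) 99 kb. Grm2 (chr9:106643095-106656082, minus strand) spans only 13 kb. Counts were taken over the whole gene, introns included, so in nuclei a long gene collects reads from unspliced RNA along its length. Other gene models on the same strand covered at most 2% of any of the 6 genes, and those models had 0 counts.

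In CPM, Grm7 led the family. It averaged 2201 CPM over the 9 libraries (range 1961 to 2462), which ranked it 45 among the genes tested. Grm5 averaged 1515 CPM (1310 to 1706) and ranked 77. Of the counts of the 6 genes, Grm7 held 47.3% and Grm5 32.5%. Grm8 averaged 587 CPM (516 to 671), Grm3 274 CPM (169 to 353) and Grm4 70.7 CPM (45.2 to 99.3). Grm2 was lowest at 12.7 CPM (9.20 to 16.1), from 241 to 406 counts a library, or 0.272% of the counts of the 6 genes.

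Per kb of gene body the order changed. Grm5 came first with 2.75 CPM per kb (range 2.38 to 3.10), ahead of Grm7 with 2.39 CPM per kb (2.13 to 2.67). These ranges overlap, but within each library Grm5 was above Grm7, in 9 of 9. Grm3 followed at 1.14 CPM per kb (0.707 to 1.47) and Grm2 at 0.976 CPM per kb (0.709 to 1.24), with Grm3 above Grm2 in 7 of 9 libraries. Grm4 had 0.714 CPM per kb (0.456 to 1.00) and Grm8 0.682 CPM per kb (0.600 to 0.781). Grm4 was above Grm8 in only 6 of 9 libraries, at a ratio of 1.05, and Grm2 was above Grm4 in 7 of 9. None of these neighbouring pairs from Grm3 downwards kept 1 order across libraries. By its mean, Grm2, lowest in CPM, lay between Grm3 and Grm4 once gene length was taken into account. Coding sequence takes 2619 bases of the 13 kb of Grm2, against 2640 of 240 kb in Grm3 and 2739 of 99 kb in Grm4. Reads on exons and introns were not counted apart, so the part of exons in this order was not tested.

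**Figure D1:**
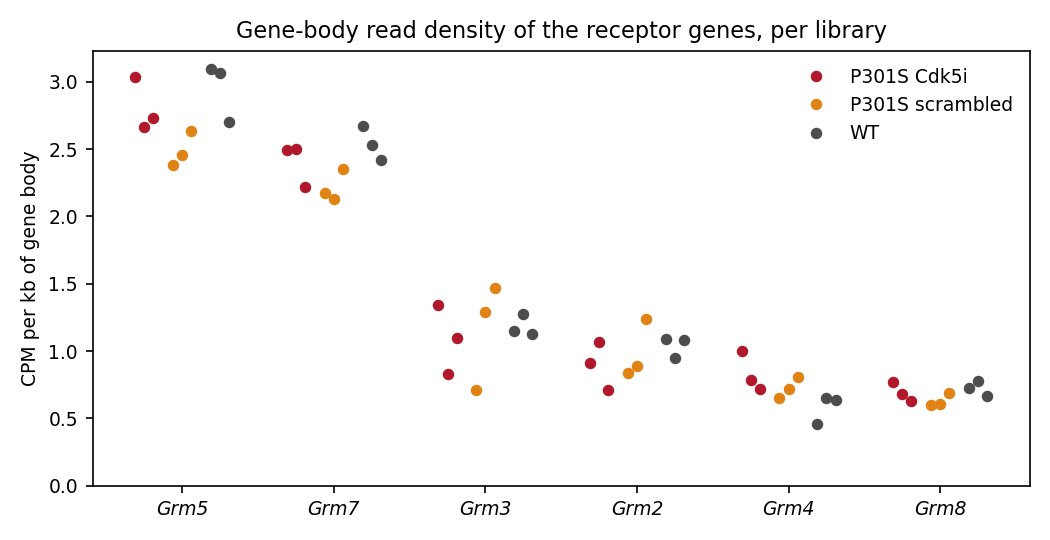
Gene-body read density of the 6 receptor genes in CPM per kb (vertical axis), 1 point per library, coloured by group, with genes ordered by their mean. Grm5 and Grm7 lie between 2.13 and 3.10 CPM per kb, above all points of the other 4 genes, whose highest value is 1.47 CPM per kb.

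The spread between libraries also split the family. The coefficient of variation over the 9 libraries was 7.68% for Grm7, 9.50% for Grm5 and 9.67% for Grm8, against 16.4% for Grm2, 20.9% for Grm4 and 21.4% for Grm3. Within groups, the biological coefficient of variation estimated by edgeR was 24.5% for Grm3, 14.5% for Grm2 and 14.4% for Grm4. It was 7.47 to 8.62% for Grm7, Grm5 and Grm8, with a median of 11.2% over all genes tested. A difference in Grm3 therefore had to be much larger than one in Grm7 to stand out from the spread.

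**Figure D2:**
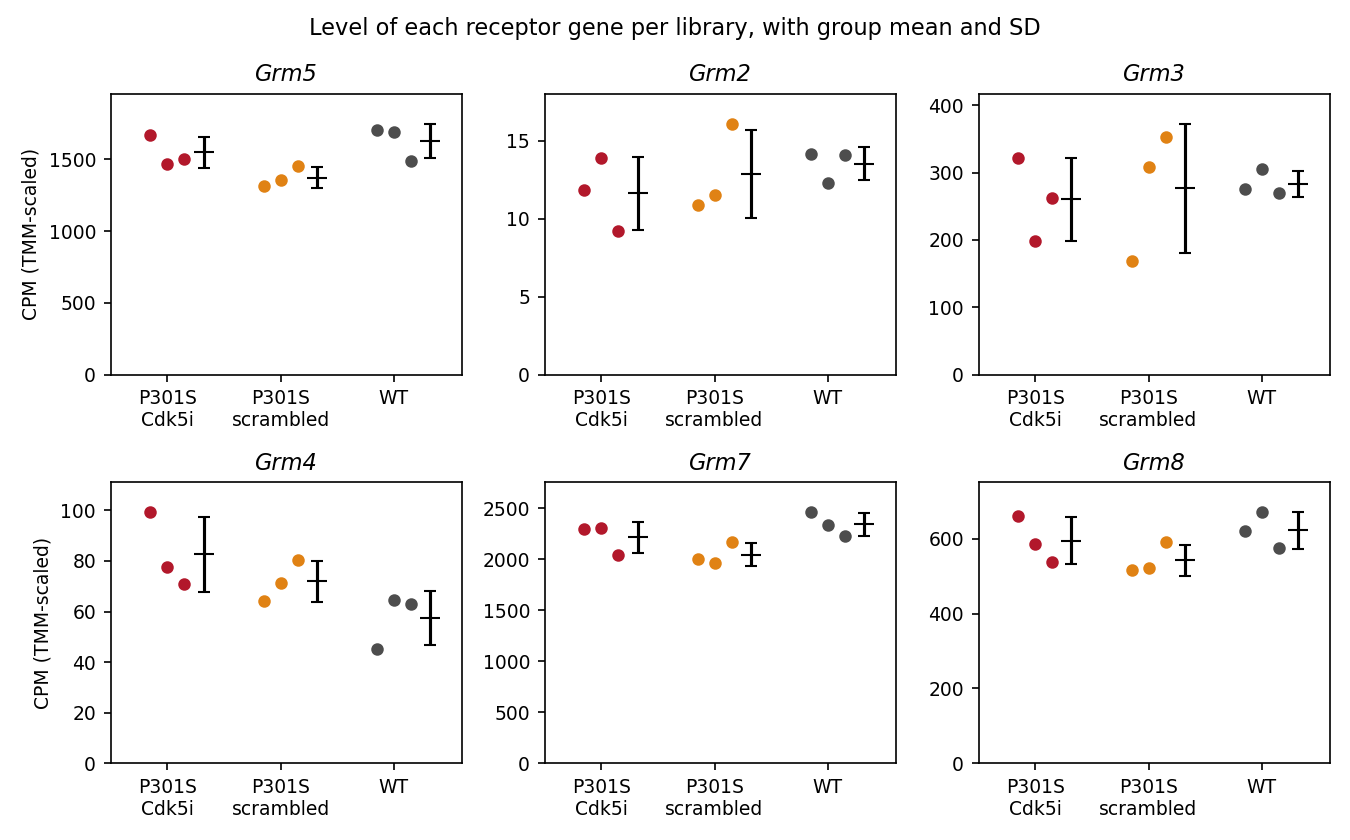
Level of each receptor gene in TMM-scaled CPM (vertical axes, from 0), 1 point per library in the order of replicates 1 to 3, with the mean and SD of each group beside the points. Grm5 is lower in every scrambled library (1310 to 1450 CPM) than in any WT (1488 to 1706 CPM) or Cdk5i library (1467 to 1671 CPM), and Grm4 is higher in every Cdk5i library (71.0 to 99.3 CPM) than in any WT library (45.2 to 64.4 CPM).

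Whether the Cdk5i peptide altered these receptors in tau transgenic neurons is asked by setting Cdk5i against scrambled peptide. In this comparison 0 of 6 receptor genes passed an adjusted p of 0.05 in edgeR's quasi-likelihood test, with 0.0125% of all tested genes passing. By DESeq2 0 of 6 passed as well. At an unadjusted p under 0.05 the count by edgeR was also 0 of 6, against 5.33% of all genes. DESeq2 put Grm5 under this level (0.0288 before adjustment), but the share of all genes was not counted for DESeq2. The median log2 fold change of the 6 genes was 0.12, against -0.01 over all genes tested, and 4 of 6 were above 0, against 47.2% of all genes.

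Grm5 was the receptor whose groups separated. It had 1671, 1467 and 1502 CPM in the Cdk5i libraries (replicates 1 to 3), against 1310, 1353 and 1450 CPM in the scrambled libraries. All 3 Cdk5i libraries were above all 3 scrambled libraries, by a narrow gap between 1467 and 1450 CPM. It was 1 of 6 receptor genes, against 10.3% of all genes separated in either direction and 4.95% upwards. Group means were 1547 ± 109 CPM (Cdk5i) and 1371 ± 71.8 CPM (scrambled; SD, n = 3 each). As a log2 fold change this was 0.17 (SE 0.084, 95% interval -0.007 to 0.35), with an adjusted p of 0.922 by edgeR.

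The long group III genes had smaller values of the same sign. Grm7 averaged 2216 ± 150 CPM in Cdk5i libraries and 2045 ± 110 CPM in scrambled ones (SD, n = 3 each), or 0.11 as log2 fold change (SE 0.082), at an adjusted p of 0.956 by edgeR. For Grm8 the means were 595 ± 62.3 CPM in Cdk5i libraries and 543 ± 41.8 CPM in scrambled ones, or 0.13 as log2 fold change (SE 0.091), at an adjusted p of 0.953 by edgeR. The libraries of the 2 groups overlapped for both genes. When offsets that follow gene length within each library were put into the fit, the log2 fold change was 0.078 for Grm5, 0.005 for Grm7 and 0.023 for Grm8. The summed inhibitory neuron markers separated as Grm5 did, at 1682 to 1834 CPM in Cdk5i libraries and 1418 to 1602 CPM in scrambled ones. Adarb2 and Nxph1 led this sum, while of 11 markers 7 had log2 fold changes above 0 and 4 below (median 0.013). The score of these markers, their mean log2 deviation, did not separate the groups, at -0.012 to 0.107 in Cdk5i and -0.122 to 0.049 in scrambled libraries. With this score in the fit, a setting added after the data were seen, the log2 fold change of Grm5 was 0.14.

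Grm4 had 99.3, 77.7 and 71.0 CPM in the Cdk5i libraries, against 64.2, 71.2 and 80.2 CPM in the scrambled libraries. Cdk5i replicate 1 was the highest of all, and the rest overlapped. The log2 fold change of 0.20 (SE 0.17, adjusted p 0.966 by edgeR) was 0.049 without Cdk5i replicate 1. Grm2, a release-limiting autoreceptor, averaged 11.6 ± 2.34 CPM in Cdk5i libraries and 12.9 ± 2.83 CPM in scrambled ones. Grm3 averaged 261 ± 61.5 CPM in Cdk5i libraries and 277 ± 95.7 CPM in scrambled ones. Their log2 fold changes were -0.14 (95% interval -0.52 to 0.23) and -0.09 (95% interval -0.78 to 0.60), and both lost their sign when some single libraries were left out.

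Setting Cdk5i-treated Tau P301S mice against untreated WT mice joins the transgene with the injections. Again 0 of 6 receptor genes passed an adjusted p of 0.05 in edgeR, with 0.0748% of all tested genes passing. At an unadjusted p under 0.05, 1 of 6 stood, against 11% of all genes. The groups did not overlap for 1 of 6, against 16.3% of all genes in either direction. That gene was Grm4 in both counts. Of the 6 genes, 1 had a log2 fold change above 0, against 48.8% of all genes, and their median was -0.08, against -0.005 over all genes.

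Grm4 had 99.3, 77.7 and 71.0 CPM in the Cdk5i libraries, against 45.2, 64.4 and 62.9 CPM in the WT libraries. Every Cdk5i library was above every WT library, a separation upwards found in 8.03% of all genes. Means were 82.7 ± 14.8 CPM with Cdk5i and 57.5 ± 10.7 CPM in WT (SD, n = 3 each). The fold was 1.44 (95% interval 1.10 to 1.88), a log2 fold change of 0.52 (SE 0.17). The p was 0.0136 and the adjusted p 0.335 by edgeR's quasi-likelihood test, as 648th in the order of p among all genes. DESeq2 gave a log2 fold change of 0.53 with an adjusted p of 0.0415, and edgeR without the low-count filter one of 0.54 with an adjusted p of 0.00614. Those fits also called many more genes, 114 by DESeq2 and 408 without the filter, against 12.

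The most extreme libraries carried much of the size. Without WT replicate 1, the lowest library, the log2 fold change of Grm4 was 0.38 (adjusted p 0.692 by edgeR). Without Cdk5i replicate 1, the highest, it was 0.37 (adjusted p 0.538 by edgeR). In every fit that left out 1 library it stayed above 0.

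Striatal neurons, where Grm4 is known to act, were followed by their markers. The summed level of the 9 striatal markers was 2133 to 2842 CPM in the Cdk5i libraries, 1488 to 2153 CPM in the scrambled libraries and 1576 to 2446 CPM in the WT libraries. Pde10a, which averaged 1794 CPM, makes up most of it, and no marker of the list was at 0. Against WT, 9 of 9 markers had a log2 fold change above 0 in the Cdk5i libraries (median 0.35), against 48.8% of all genes (median -0.005). An adjusted p of 0.05 was passed by 0 of 9, by edgeR or DESeq2. At an unadjusted p under 0.05 by edgeR 1 of 9 stood, against 11% of all genes. The score of these markers, their mean log2 deviation, was lowest in WT replicate 1 (-0.757) and highest in Cdk5i replicate 1 (0.55), the libraries with the least and the most Grm4. With this score as a term of the fit, a setting added after the data were seen, the log2 fold change of Grm4 was 0.34 (adjusted p 0.463 by edgeR). The striatal marker score did not order every library: Cdk5i replicate 2 had a score of -0.256 and the third highest Grm4 level, 77.7 CPM. In bulk nuclei, more cells of a type and more RNA per cell cannot be told apart.

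**Figure D3:**
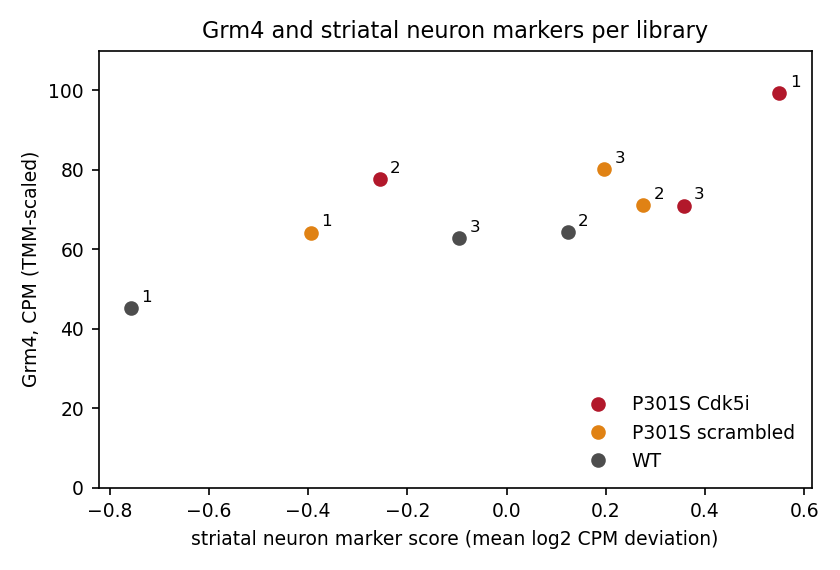
Grm4 level in TMM-scaled CPM (vertical axis, from 0) against the striatal neuron marker score, the mean log2 CPM deviation of 9 markers (horizontal axis), 1 point per library, numbered by replicate and coloured by group. WT replicate 1 (score -0.757, 45.2 CPM) and Cdk5i replicate 1 (score 0.55, 99.3 CPM) form the ends, and the 7 other libraries lie between 62.9 and 80.2 CPM.

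The other receptors had log2 fold changes between -0.22 and -0.06 for Cdk5i against WT. Grm5 averaged 1547 ± 109 CPM with Cdk5i and 1627 ± 121 CPM in WT, with a log2 fold change of -0.07 (95% interval -0.25 to 0.11). Grm7 averaged 2216 ± 150 CPM with Cdk5i and 2341 ± 117 CPM in WT, with a log2 fold change of -0.08 (95% interval -0.26 to 0.10). For Grm8 it was -0.06 (95% interval -0.26 to 0.13), from 595 ± 62.3 CPM with Cdk5i and 622 ± 48.3 CPM in WT. These intervals leave out changes in these 3 genes beyond 0.26 downwards or 0.13 upwards on the log2 scale. For Grm2 it was -0.22 (95% interval -0.59 to 0.16) and for Grm3 -0.12 (95% interval -0.81 to 0.57), so the limits on these genes are far wider.

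Scrambled-peptide Tau P301S mice against WT mice ask for the receptors' state in tau transgenic neurons without the inhibitor, with the injection still a difference. Here too 0 of 6 receptor genes passed an adjusted p of 0.05 in edgeR, with 0.081% of all tested genes passing. By DESeq2 it was 0 of 6 too. At an unadjusted p under 0.05, 3 of 6 stood, namely Grm5, Grm7 and Grm8, against 10.1% of all genes. All 3 had log2 fold changes below 0, a call made for 5.2% of all genes. DESeq2 also had these 3 under 0.05 before adjustment, and besides them Grm4 (0.0357), which was above 0. The share of all genes was not counted for DESeq2. The groups did not overlap for 2 of 6, Grm5 and Grm7, against 16.3% of all genes in either direction. The median log2 fold change was -0.13 for the 6 genes and 0.008 for all genes tested, with 1 of 6 above 0, against 51.7% of all genes.

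Grm5 had 1310, 1353 and 1450 CPM in the scrambled libraries, against 1706, 1686 and 1488 CPM in the WT libraries. Every scrambled library was below every WT library, which was so for 8.03% of all genes. Means were 1371 ± 71.8 CPM with scrambled peptide and 1627 ± 121 CPM in WT (SD, n = 3 each), a fold of 0.843. This is a log2 fold change of -0.25 (SE 0.084, 95% interval -0.43 to -0.07), at an adjusted p of 0.354 by edgeR (0.0112 before adjustment).

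Grm7 had 2005, 1961 and 2170 CPM in the scrambled libraries, against 2462, 2332 and 2230 CPM in the WT libraries. These groups did not overlap either. On the log2 scale the fold change was -0.20 (SE 0.082, 95% interval -0.37 to -0.02), at an adjusted p of 0.448 by edgeR (0.0326 before adjustment). Grm8 had 516, 521 and 591 CPM in the scrambled libraries, against 621, 671 and 575 CPM in the WT libraries. Scrambled replicate 3 lay above WT replicate 3, so the groups overlapped. The log2 fold change of Grm8 was -0.20 (SE 0.091), at an adjusted p of 0.493 by edgeR (0.0484 before adjustment).

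These 3 are the longest of the 6 genes. With offsets for gene length, the log2 fold change against WT was -0.14 for Grm5 (adjusted p 0.458 by edgeR). It was -0.06 for Grm7 (adjusted p 0.764) and -0.07 for Grm8 (adjusted p 0.755). Of the 3 genes at an unadjusted p under 0.05, 1 was left, Grm5, since edgeR gave 0.323 for Grm7 and 0.303 for Grm8 before adjustment. Leaving out 1 library kept Grm7 and Grm8 each under 0.05 before adjustment in 2 of 6 fits, those without WT replicate 3 or scrambled replicate 3, and Grm5 in 6 of 6. With the gene length offsets all 3 were thus nearer to 0, and Grm5 kept the value farthest from 0. The 11 inhibitory neuron markers were summed beside these genes. The groups did not overlap in this sum either, at 1418 to 1602 CPM in the scrambled libraries and 1647 to 1898 CPM in the WT libraries, a sum led by Adarb2 and Nxph1, while 7 of 11 markers had log2 fold changes above 0. With the score of all 11 markers in the fit, also added after the data were seen, the values were -0.26 for Grm5, -0.20 for Grm7 and -0.21 for Grm8. Unlike the sum, that score overlapped between the groups, at -0.122 to 0.049 in scrambled and -0.088 to 0.069 in WT libraries.

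Grm4 had 64.2, 71.2 and 80.2 CPM in the scrambled libraries, against 45.2, 64.4 and 62.9 CPM in the WT libraries. The groups overlapped by a hair, at 64.2 and 64.4 CPM. The log2 fold change was 0.32 (SE 0.17, 95% interval -0.06 to 0.71), with an adjusted p of 0.576 by edgeR. Of the striatal markers, 7 of 9 were also above 0, against 51.7% of all genes. Grm2 averaged 12.9 ± 2.83 CPM with scrambled peptide and 13.5 ± 1.05 CPM in WT (SD, n = 3 each), a log2 fold change of -0.07 (95% interval -0.44 to 0.30).

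Grm3 was the least settled gene of the family. It had 321, 198 and 262 CPM in the Cdk5i libraries, 169, 309 and 353 CPM in the scrambled libraries and 276, 306 and 269 CPM in the WT libraries. The lowest and the highest of the 9 values were both in the scrambled group, whose SD of 95.7 CPM compares with 19.5 CPM in WT. For scrambled peptide against WT the log2 fold change was -0.03 (95% interval -0.72 to 0.65), and 0.22 without scrambled replicate 1. Since astrocytes also make Grm3, their 8 markers were summed. The sum was 888, 764 and 669 CPM in the Cdk5i libraries, 602, 719 and 815 CPM in the scrambled libraries and 781, 786 and 769 CPM in the WT libraries, so that scrambled replicate 1 was lowest in both. Slc1a2 and Slc4a4 made up most of the sum, with Gfap, Gja1, Gjb6 and Aqp4 at or under 1.10 CPM. Their part in the spread of Grm3 was not tested.

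**Figure D4:**
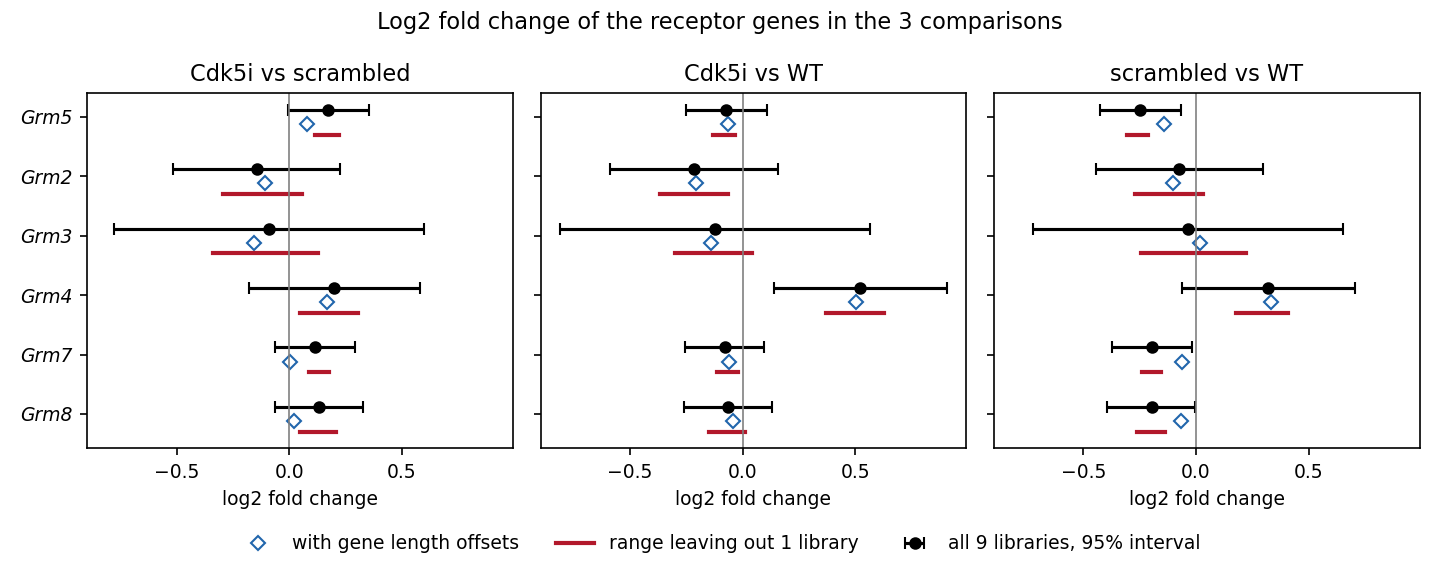
Log2 fold changes of the 6 receptor genes (rows) in the 3 comparisons (panels): black points with 95% intervals from all 9 libraries, open blue diamonds with gene length offsets, red bars the range when 1 library is left out. The diamonds of Grm5, Grm7 and Grm8 lie nearer to 0 than the black points for Cdk5i against scrambled peptide and for scrambled peptide against WT, while Grm4 against WT keeps 0.50 with Cdk5i.

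The comparisons share libraries, so their values are set side by side and not related to each other. For Grm5 the log2 fold change was 0.17 for Cdk5i against scrambled peptide, -0.07 for Cdk5i against WT and -0.25 for scrambled peptide against WT. For Grm4 the same comparisons gave 0.20, 0.52 and 0.32. The summed level of the 6 genes was 5063, 4649 and 4425 CPM in Cdk5i libraries, 4076, 4226 and 4660 CPM in scrambled ones and 5124, 5072 and 4638 CPM in WT ones. All groups overlapped in this sum.

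Across libraries, the highest correlations were among the 3 longest genes. Of the 15 pairs of receptor genes, 3 passed an adjusted p of 0.05 in an exact two-sided permutation test of log2 CPM over the 9 libraries, with Benjamini-Hochberg adjustment over the 15. The share of all gene pairs that would pass was not counted, and the correlations were not repeated with gene length offsets. Whether these 3 genes vary together more than other long genes do was therefore not tested. Grm5 and Grm8 had r = 0.90 (exact p 0.00213, adjusted 0.0271) and rho = 0.78. Grm5 and Grm7 had r = 0.85 (adjusted 0.0271 by the exact permutation test) and rho = 0.82, and Grm7 and Grm8 r = 0.85 (adjusted 0.0271 by the exact permutation test) and rho = 0.83. By rho, 0 of 15 pairs passed, since the adjusted exact p of these 3 ran from 0.0808 to 0.0861. Without the 2 libraries farthest from the median, r was 0.90, 0.73 and 0.71, and 0 of 15 pairs passed with the 7 left. Within groups, on deviations from the group means, r was 0.85, 0.63 and 0.75, with 0 of 15 past the threshold. The 12 other pairs had r of at most 0.56 over the 9 libraries. Some were as close on deviations from the group means, where Grm2 and Grm7 had r = 0.79 (adjusted 0.100 by the permutation test) and Grm5 and Grm3 r = 0.66 (adjusted 0.197). These deviations were permuted across groups although they sum to 0 within each group. The test is therefore not exact for them, and its p-values tend to be too low. The test over the 9 libraries also permutes across groups, so differences between the groups enter its p-values as well.

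**Figure D5:**
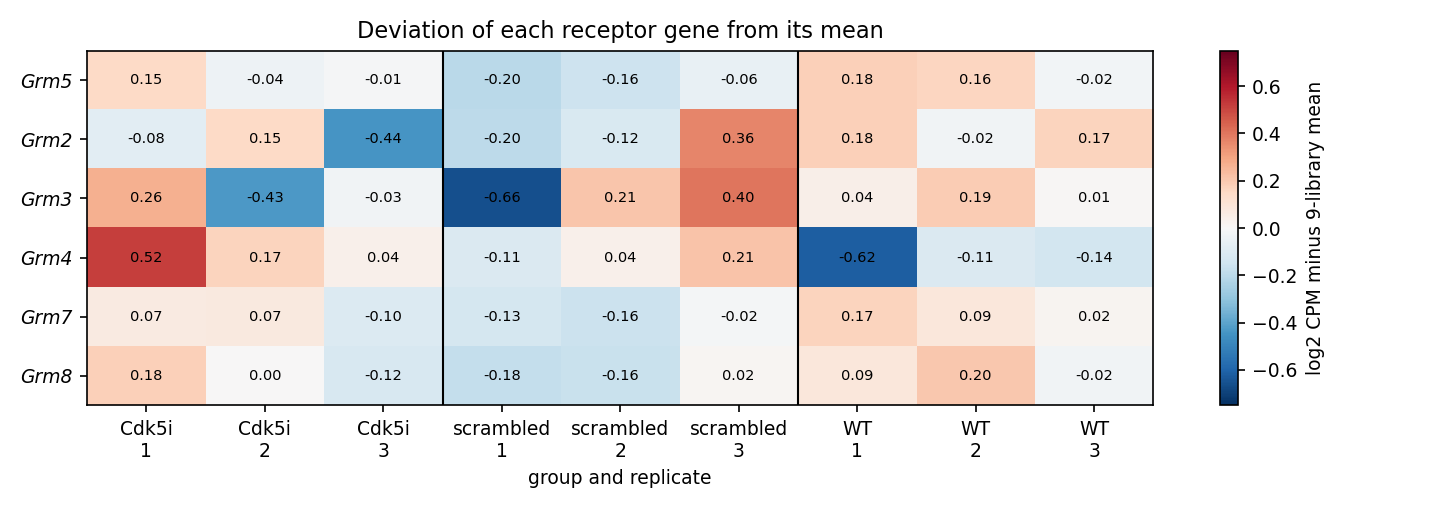
Deviation of each receptor gene (rows) from its mean over the 9 libraries (columns, by group and replicate), in log2 CPM, red above and blue below the mean. The rows of Grm5, Grm7 and Grm8 share their pattern, with scrambled replicates 1 and 2 lowest (-0.13 to -0.20), and the widest deviations are -0.66 for Grm3 in scrambled replicate 1 and -0.62 for Grm4 in WT replicate 1.

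The genes whose levels were most like each receptor's over the 9 libraries were listed from 10886 genes, as a description. For Grm5 they were Phkb (r = 0.986), a subunit of phosphorylase kinase, and Lix1 (r = 0.970). For Grm7 they were Rapgef4 (r = 0.978), a cyclic AMP sensor, and B3galt1 (r = 0.978), a galactosyltransferase. For Grm8 they were Cntn4 (r = 0.976), a neuronal adhesion protein whose gene is on chromosome 6 as well, and Etl4 (r = 0.970). Each of these genes had a higher r with its receptor than Grm5, Grm7 and Grm8 had with each other (at most 0.90). Grm4 was followed by Znrf1 (r = 0.986), a ubiquitin ligase, and Adarb1 (r = 0.982), an RNA-editing enzyme. Grm2 was followed by Srsf5 (r = 0.979), a splicing factor, and Atp2c1 (r = 0.949), a calcium and manganese pump of the Golgi. Grm3 had the weakest leaders, Pde8b (r = 0.948), a cyclic AMP phosphodiesterase, and Zfp606 (r = 0.924).

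The signalling partners of the receptors were taken from lists by role, and 0 of the 84 genes tested passed an adjusted p of 0.05 in any of the 3 comparisons, by edgeR or by DESeq2. At an unadjusted p under 0.05, 8 of 84 (9.52%) stood for Cdk5i against scrambled peptide, 15 (17.9%) for Cdk5i against WT and 12 (14.3%) for scrambled peptide against WT. Over all genes these shares were 5.33, 11 and 10.1%. For the counts by list that follow, 47.2, 48.8 and 51.7% of all genes had log2 fold changes above 0 in the same order. The medians over all genes were -0.01, -0.005 and 0.008. No list was tested as a set. In the Gq cascade below Grm5, 13 genes were tested. Of these, 9 had log2 fold changes above 0 for Cdk5i against scrambled peptide (median 0.08), 12 for Cdk5i against WT (median 0.07) and 8 for scrambled peptide against WT (median 0.06). Prkca, a protein kinase C, had the lowest p for Cdk5i against WT, with 637 ± 89.4 CPM with Cdk5i and 502 ± 90.4 CPM in WT (adjusted p 0.393 by edgeR).

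In the Gi/o cascade below the group II and III receptors, 22 genes were tested, of which 9, 13 and 16 were above 0 in the same 3 comparisons (medians -0.007, 0.10 and 0.08). Adcy8, a calcium-stimulated adenylyl cyclase, averaged 198 ± 38.9 CPM after Cdk5i, 166 ± 17.5 CPM after scrambled peptide and 237 ± 35.2 CPM in WT. Its log2 fold change for scrambled peptide against WT was -0.51 (adjusted p 0.347 by edgeR). Kcnj6, a potassium channel opened by G proteins, had 352 ± 34.0 CPM with Cdk5i and 295 ± 11.5 CPM in WT, a log2 fold change of 0.26 (adjusted p 0.307 by edgeR). Adcy3, another cyclase, had a log2 fold change of -0.13 for Cdk5i against scrambled peptide (adjusted p 0.922).

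Homer and Shank proteins tether group I receptors to the postsynaptic density. Their list also holds Ncdn and Tamalin, while Homer3 did not pass the filter on low counts. Of the 7 tested genes of this list, 5, 6 and 6 were above 0 in the same order of comparisons (medians 0.02, 0.13 and 0.09). Homer2 led Cdk5i against scrambled peptide with a log2 fold change of 0.20 (adjusted p 0.922 by edgeR), and Shank3 both comparisons with WT, with 0.13 (adjusted p 0.499) for Cdk5i and 0.12 (adjusted p 0.559) for scrambled peptide. Of 6 partners of the group III receptors, 3, 3 and 4 were above 0. Elfn2, an adhesion protein that binds group III receptors across the synapse, averaged 88.1 ± 6.82 CPM after Cdk5i, 86.2 ± 1.31 CPM after scrambled peptide and 75.6 ± 1.09 CPM in WT. Its log2 fold change was 0.22 (adjusted p 0.248 by edgeR) for Cdk5i and 0.19 (adjusted p 0.351) for scrambled peptide against WT. Ppp1cc, a phosphatase subunit that binds Grm7, had a log2 fold change of 0.24 for Cdk5i against scrambled peptide (adjusted p 0.922).

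Receptor desensitisation was read from 12 genes, of which 7, 8 and 7 were above 0. Rgs12, which speeds G protein shut-off, averaged 23.1 ± 2.34 CPM after Cdk5i, 17.8 ± 2.14 CPM after scrambled peptide and 22.2 ± 3.84 CPM in WT. Its log2 fold change was 0.37 for Cdk5i against scrambled peptide (adjusted p 0.819 by edgeR) and -0.31 for scrambled peptide against WT (adjusted p 0.441). Arrb1, an arrestin, had 0.17 for Cdk5i against WT (adjusted p 0.43).

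Of 14 genes that supply and clear glutamate, the ligand of all 6 receptors, 6 were above 0 in each comparison (medians -0.02, -0.16 and -0.04). Glul, glutamine synthetase, averaged 7.82 ± 0.737 CPM after Cdk5i, 10.4 ± 1.34 CPM after scrambled peptide and 7.62 ± 0.872 CPM in WT. Its log2 fold change was -0.41 for Cdk5i against scrambled peptide (adjusted p 0.768 by edgeR) and 0.45 for scrambled peptide against WT (adjusted p 0.311). Gls2, a glutaminase, had 14.7 ± 0.900 CPM with Cdk5i and 11.6 ± 1.32 CPM in WT (adjusted p 0.335 by edgeR).

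NAAG, a peptide that activates Grm3, is made and broken down by genes of which 4 were tested, and 1, 3 and 3 were above 0 (medians -0.16, 0.16 and 0.21). Nat8l, which makes the precursor N-acetylaspartate, averaged 24.3 ± 2.78 CPM after Cdk5i, 29.0 ± 1.71 CPM after scrambled peptide and 23.0 ± 3.57 CPM in WT. Its log2 fold change was -0.26 for Cdk5i against scrambled peptide (adjusted p 0.922 by edgeR) and 0.34 for scrambled peptide against WT (adjusted p 0.351). Rimkla, a NAAG synthetase, had 0.25 for Cdk5i against WT (adjusted p 0.42). Of the 6 endocannabinoid genes, which act downstream of group I receptors, 3, 4 and 5 were above 0 (medians 0.04, 0.06 and 0.03). Cnr1, the cannabinoid receptor of nerve terminals, had the lowest p for Cdk5i against scrambled peptide (log2 fold change 0.14, adjusted p 0.958 by edgeR) and for scrambled peptide against WT (-0.19, adjusted p 0.578). Dagla, which makes the endocannabinoid 2-AG, had 0.24 for Cdk5i against WT (adjusted p 0.408).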

How the data were processed

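NeuN-positive nuclei were sorted from cortex, and total RNA was made into stranded libraries with random priming (SMARTer Pico Input kit), per the labels' protocols. The deposited values are raw counts per gene, 1 table per library. Per the file headers, featureCounts 2.0.0 assigned pairs to whole genes of Ensembl release 102, in reverse-stranded mode. The submitters' processing notes name STAR 2.7.9a, DESeq2 1.36.0, Subread 2.0.0 and the build GRCm38, without their roles. Read pairs that overlap several genes on 1 strand are left out by default.

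Groups were taken from the sample titles. Genes passing filterByExpr (minimum count 10), 16046 in all, were fitted with TMM factors in 1 robust quasi-likelihood model of 3 group means (edgeR 4.0.16, R 4.3.3; 6 residual degrees of freedom) and adjusted by Benjamini-Hochberg over all tested genes. Log2 fold changes had a standard error of 0.14 at the median over genes. Alternatives used DESeq2 1.42.0, other filters and scalings, gene length offsets, a replicate block, and leaving out each library. Count models were tested on simulated data. Correlations used all permutations of the libraries, which is not exact for deviations from group means. Sequences were aligned with Biopython 1.88 from GENCODE M21. Libraries of 1 group differed beyond sampling noise (chi-square per gene 8.96 to 27), so none was a copy.

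The receptor genes and gene lists were chosen with earlier results of these data known. Named are the receptor genes, the gene with the lowest p of each partner list and comparison, and the 2 genes most correlated with each receptor (mean count at least 50, no predicted or mitochondrial genes). A gene that this rule named and 1 sequence are not reported here. Marker genes named beside a result were chosen after their values were seen.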

Additional observations from a re-analysis of the deposited data

How the results depend on the processing

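Over 12 settings that kept every library of the groups compared, 213 of 216 log2 fold changes of the receptor genes kept their direction and side of the threshold. Grm4 in Cdk5i against WT passed with DESeq2 (0.53, adjusted p 0.0415) and without the low-count filter (0.54, adjusted p 0.00614 by edgeR), so that 1 receptor gene passed in each. Its adjusted p in the other such settings was 0.272 to 0.491. Grm3 in scrambled peptide against WT reversed to 0.019 with gene length offsets. Leaving out 1 library kept 98 of 108 values and reversed 10, all of uncalled genes. Ranges for scrambled peptide against WT were -0.27 to 0.033 for Grm2 and -0.25 to 0.22 for Grm3, above 0 without scrambled replicate 1 (0.033 and 0.22) and, for Grm3, without WT replicate 2 (0.024). For Cdk5i against scrambled peptide they were -0.29 to 0.057 for Grm2 and -0.34 to 0.13 for Grm3. Grm2 was above 0 without scrambled replicate 3 (0.057) or Cdk5i replicate 3 (0.007), and Grm3 without scrambled replicates 2 (0.005) or 3 (0.13) or Cdk5i replicate 2 (0.075). For Cdk5i against WT they were -0.30 to 0.042 for Grm3, above 0 without Cdk5i replicate 2, and -0.15 to 0.009 for Grm8, above 0 without Cdk5i replicate 3. The cause was not tested.

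Counts of all genes past the threshold, as Cdk5i against scrambled peptide, Cdk5i against WT and scrambled peptide against WT, were 2, 12 and 13. They became 27, 114 and 72 with DESeq2 and 159, 408 and 318 without a filter. In the comparisons with WT they became 6 and 6 with a filter of 50 counts and 3 and 6 without robust dispersion. Fitting only the 2 groups compared gave 2 for Cdk5i against WT. The striatal score gave 9 for Cdk5i against scrambled peptide and 7 for Cdk5i against WT, and the inhibitory score gave 4 for Cdk5i against scrambled peptide. Leaving out 1 library gave 2 to 18, 2 to 7 and 2 to 17. The replicate block gave 2 in both comparisons with WT, also with gene length offsets. Replicate numbers did not pair the libraries, as deviations of same-numbered libraries correlated at -0.308 to 0.171 and 1 of 9 libraries correlated best with its own number. With the block, Grm4 in Cdk5i against WT had 0.53 (adjusted p 0.491 by edgeR), and it changed no call of a receptor gene. At an unadjusted p under 0.05 the block kept Grm5 (0.0298 by edgeR) for scrambled peptide against WT, but not Grm7 (0.0707) or Grm8 (0.0889). The 3 correlated pairs became 0 on deviations from group means and 0 without the 2 farthest libraries, where 7 libraries are left.

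Grm2 rests on the fewest counts of the 6 genes, 241 to 406 a library. The 95% interval of the log2 fold change of Grm3 for scrambled peptide against WT runs from -0.72 to 0.65.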
